A study of Rattus norvegicus with 18 samples.

Results

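The genes described here are those of the DNA replication machinery that copy the genome in S phase: the subunits of the MCM2-7 helicase (Mcm2, Mcm3, Mcm4, Mcm5, Mcm6 and Mcm7), the sliding clamp Pcna, and Rrm1, Rrm2 and Tyms, whose enzymes supply deoxynucleotides. They were chosen by name, with earlier results of these data known. A probe was taken as theirs where the platform annotation, or otherwise the RefSeq accession of the array, gave 1 of these 10 symbols. That rule found 12 probes for 9 of the 10 genes, among 33849 gene probes that name 12344 genes. No probe carried the symbol Mcm3, which is not analysed here. Mcm5, Mcm6 and Rrm1 had 2 probes each, and the brighter of them stands for the gene.

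Total RNA of whole hippocampus from male adult Wistar rats was profiled on 18 arrays of the CodeLink Rat Whole Genome type, 1 rat per array. D3 (n = 5) and D7 (n = 5) are rats killed 3 and 7 days after status epilepticus (SE), and Chronic (n = 5) are rats killed soon after their first spontaneous seizure. All 15 of these rats had scopolamine methylnitrate, which limits the peripheral effects of the drug, then pilocarpine, a muscarinic agonist that starts the seizures, and later diazepam to end them. Control (n = 3) are rats given only saline, 1 from each of the 3 times, so the controls differ from the pilocarpine rats by all 3 agents and by SE. In the study each time had its own age-matched controls, with n = 5 stated per experimental group. Only 1 control array per time was at hand here, so these 3 were pooled. On each Control array 7 of 8 tested neuronal markers were flagged good. Correlations of log2 intensity ran from 0.949 to 0.970 between arrays of 1 group and from 0.928 to 0.968 between arrays of different groups. The spots flagged good made up 66.0% to 76.0% of each array.

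Before a cell copies its DNA, the MCM2-7 ring is loaded on origins in G1 and is then switched on as the helicase that opens the helix ahead of the polymerases. PCNA encircles the DNA behind it and holds the polymerases in place. Ribonucleotide reductase, built of a large subunit (Rrm1) and a small one (Rrm2), makes deoxynucleotides, and thymidylate synthase (Tyms) makes thymidylate. Most of these genes are transcribed around the entry into S phase under E2F factors, and in the adult hippocampus dividing cells are few, among them the progenitors of the dentate gyrus, glial precursors and, after injury, microglia.

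At D3 all 9 measured replication genes were higher than in Control at an adjusted p under 0.05 (limma, Benjamini-Hochberg over all 33800 tested probes), and 4 of them, Mcm5, Mcm6, Rrm2 and Tyms, also passed the limit of 2-fold. At D7 the differences from Control were smaller and only Mcm5 and Rrm2 passed both limits, and in Chronic none did. Over all 12326 genes tested, 11.8% were higher at D3 at the adjusted p alone and 5.09% passed both limits. In 9 of 9 members every D3 array lay above every Control array, which was so for 16.1% of all genes. Because the set was chosen with earlier results of these data known, these shares describe it and do not test it. The 9 members had a median log2 fold change of 0.87 at D3 (−0.10 over all genes), of 0.39 at D7 (−0.12) and of 0.31 in Chronic (−0.12). Of the D3 values 3 rest on probes near background on every Control array. With these at a lower bound that allows for dim spots only, the median at D3 was 0.77. The same 3, Mcm5, Rrm2 and Tyms, also enter the medians at D7 and in Chronic, which are given without a bound. Their fitted values lay above the median at both of these times. Intensities are given as multiples of the array's median, as the authors scaled them, and "called" below means an adjusted p under 0.05 and at least 2-fold.

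**Figure D1:**
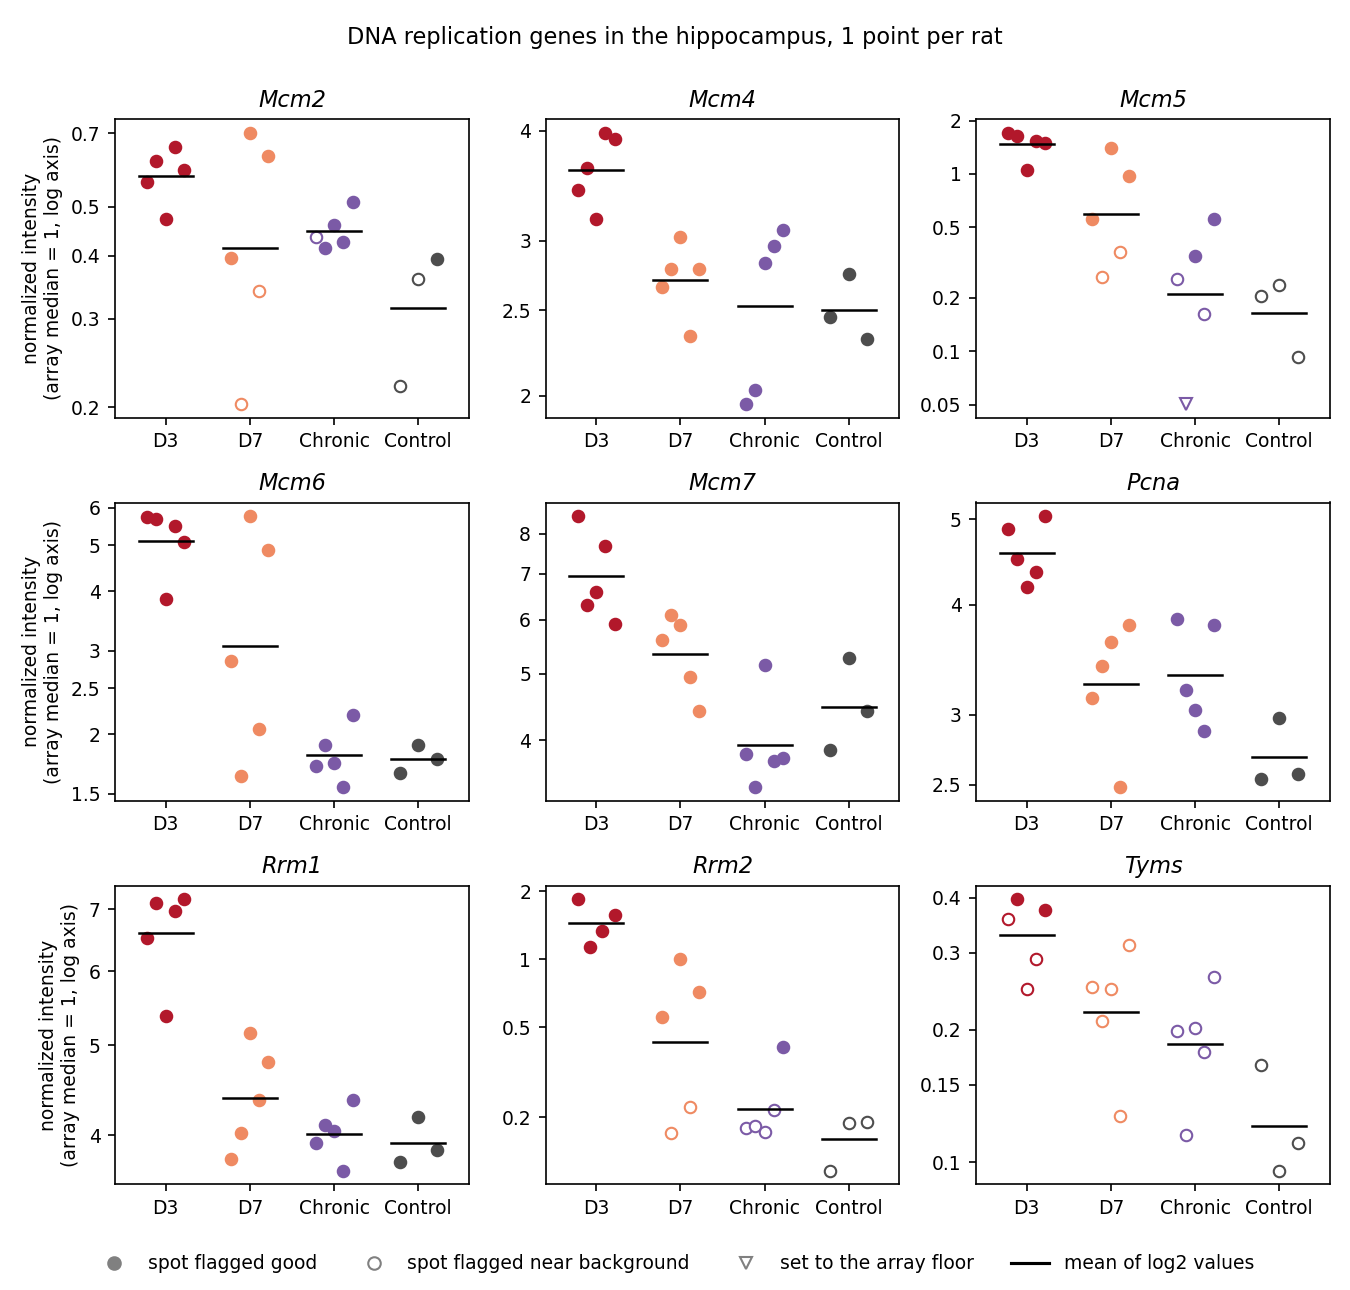
Normalized intensity (array median = 1, log axis) of the 9 measured replication genes in D3, D7, Chronic and Control, 1 point per rat. Filled points are spots flagged good and open points spots near background, the triangle is a value set to its array's floor, and the bar is the mean of the log2 values. In all 9 panels the D3 points lie above the Control points, while the D7 points reach into the range of D3 or of Control. The D7 points spread most widely in Mcm2, Mcm5, Mcm6 and Rrm2.

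The helicase subunits differed most in how far they moved. Mcm5, which sits at the gate of the ring with Mcm2, had 1.71, 1.64, 1.05, 1.54 and 1.505 at D3. At D7 it had 0.554, 0.264, 1.41, 0.362 and 0.977, and in Chronic 0.254, 0.00911, 0.345, 0.162 and 0.5603, against 0.205, 0.236 and 0.0929 in Control. The D3 and the D7 arrays all lay above the Control arrays, while the Chronic arrays overlapped them. All 3 Control spots were near background, so each fold is given as a bound. Here and below, such a bound allows for dim spots only and not for the spread between arrays. By this bound Mcm5 was at least 5.17-fold higher at D3 (adjusted p = 0.0011) and at least 2.09-fold higher at D7 (adjusted p = 0.0373). The fitted log2 fold changes were 3.15 ± 0.59 and 1.84 ± 0.59 (SE). Their 95% intervals, 1.91 to 4.39 and 0.60 to 3.08, reach below these bounds. The second Mcm5 probe had 1.02, 1.21, 0.767, 1.02 and 1.06 at D3 and 0.441, 0.251, 0.614, 0.295 and 0.316 at D7. It had 0.0761 to 0.203 in Chronic and 0.0969 to 0.172 in Control, with all 8 of these spots near background. It was called at D3 (at least 3.54-fold, adjusted p = 1.01e-05) and at D7 (at least 1.28-fold, adjusted p = 0.00504) as well.

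Mcm6, another subunit of the ring, was measured well above background on every array. It had 5.74, 5.67, 3.85, 5.49 and 5.09 at D3. At D7 it had 2.86, 1.64, 5.76, 2.05 and 4.88, and in Chronic 1.71, 1.89, 1.74, 1.55 and 2.20, against 1.66, 1.90 and 1.77 in Control. The D3 arrays stood apart from Control, 2 of the 5 D7 arrays (replicates 33 and 35) were above the lowest D3 array, and D7 replicate 32 was below all of Control. The log2 fold change over Control was 1.53 ± 0.29 at D3 (adjusted p = 0.00112), 0.79 ± 0.29 at D7 (adjusted p = 0.0633) and 0.02 ± 0.29 in Chronic (adjusted p = 0.971). The dimmer probe annotated to Mcm6 gave other values: it lay between 0.296 and 0.377 at D3, between 0.285 and 0.484 at D7 and between 0.178 and 0.331 in Chronic, against between 0.348 and 0.478 in Control, with a log2 fold change of −0.33 ± 0.23 at D3 (adjusted p = 0.347). With the mean of both probes Mcm6 was no longer called at D3, at a log2 fold change of 0.60 (adjusted p = 0.0243).

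The other 3 subunits were below the 2-fold limit. Mcm7 had 8.50, 6.31, 6.58, 7.70 and 5.92 at D3. It had 5.60, 6.10, 5.88, 4.94 and 4.42 at D7 and 3.82, 3.41, 5.16, 3.73 and 3.77 in Chronic, against 3.87, 5.26 and 4.41 in Control. Only the D3 arrays cleared Control, by a log2 fold change of 0.63 ± 0.15 (adjusted p = 0.00528), and in Chronic Mcm7 had −0.19 ± 0.15 (adjusted p = 0.447). Mcm4, part of the helicase core with Mcm6 and Mcm7, had 3.43, 3.63, 3.17, 3.98 and 3.91 at D3, against 2.46, 2.75 and 2.32 in Control. Its log2 fold change was 0.53 ± 0.15 at D3 (adjusted p = 0.0142), the lowest of the 9 members, and 0.11 ± 0.15 at D7 (adjusted p = 0.643). Mcm2 had 0.561, 0.616, 0.473, 0.657 and 0.591 at D3, against 0.221, 0.360 and 0.395 in Control, of which 2 were near background. Its log2 fold change at D3 was 0.87 ± 0.30 (adjusted p = 0.0452), the closest of the 9 to the threshold.

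The sequences before these genes are shown because E2F factors are known to act on most of them. A link between the letters and the measured values was not tested. RefSeq windows (GRCr8) of the 250 bases before the start of the gene could be matched for 8 of the 10 genes, all but Mcm4 and Rrm2. They were searched on both strands for 4 spellings of the E2F site, TTTCCCGC, TTTCGCGC, TTTGCCGC and TTTGGCGC. Of the 8 windows 5 held at least 1 match, against 1.73% of all 33469 windows and 2.64% of the 19006 windows with a GC content at least as high as the lowest of the members. These 5 follow, each read towards the gene with the matched letters in capitals:
Mcm2 (chr4:122918095-122918344, minus strand): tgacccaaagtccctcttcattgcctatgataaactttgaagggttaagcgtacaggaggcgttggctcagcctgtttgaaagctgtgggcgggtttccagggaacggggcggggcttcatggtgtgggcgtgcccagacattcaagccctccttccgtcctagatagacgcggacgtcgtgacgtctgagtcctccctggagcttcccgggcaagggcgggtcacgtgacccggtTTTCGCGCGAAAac
Mcm5 (chr19:13488563-13488812, plus strand): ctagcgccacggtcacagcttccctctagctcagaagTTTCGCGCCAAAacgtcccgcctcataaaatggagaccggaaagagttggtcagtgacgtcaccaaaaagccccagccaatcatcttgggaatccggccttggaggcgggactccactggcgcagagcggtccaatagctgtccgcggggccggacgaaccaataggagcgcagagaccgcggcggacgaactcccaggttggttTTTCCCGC
Mcm6 (chr13:42404353-42404602, minus strand): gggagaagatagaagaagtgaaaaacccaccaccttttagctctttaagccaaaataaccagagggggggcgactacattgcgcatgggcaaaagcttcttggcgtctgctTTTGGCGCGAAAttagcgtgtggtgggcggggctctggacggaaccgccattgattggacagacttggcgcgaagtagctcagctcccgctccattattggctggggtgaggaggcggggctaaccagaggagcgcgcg
Mcm7 (chr12:22163179-22163428, minus strand): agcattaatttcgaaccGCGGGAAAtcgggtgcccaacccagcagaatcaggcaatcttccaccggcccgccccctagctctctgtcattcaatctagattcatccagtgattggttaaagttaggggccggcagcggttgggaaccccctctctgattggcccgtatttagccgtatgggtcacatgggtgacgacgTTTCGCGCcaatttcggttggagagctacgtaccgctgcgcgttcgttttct
Tyms (chr9:120776084-120776333, minus strand): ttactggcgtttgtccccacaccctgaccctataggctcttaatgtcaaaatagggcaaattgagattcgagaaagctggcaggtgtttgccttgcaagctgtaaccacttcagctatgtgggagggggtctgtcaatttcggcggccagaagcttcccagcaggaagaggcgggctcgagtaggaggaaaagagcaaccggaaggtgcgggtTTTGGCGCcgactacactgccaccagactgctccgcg
Mcm2 has 2 matches, on opposite strands and overlapping, close to the start. Mcm5 has 3, of which 2 overlap and the other ends at the last base of the window, Mcm6 has 2 that overlap, Mcm7 has 2 apart, and Tyms has 1. The letters CCAAT, bound by NF-Y, were found on either strand in 6 of the 8 windows, against 34.02% of all windows, and in Mcm7 a CCAAT shares its first base with the end of the E2F letters. None of the 4 E2F spellings was in the windows of Mcm3, Pcna or Rrm1. The E2F letters were in 17 of 76 windows of other replication genes (22.4%) and in 1 of 20 windows of mitosis genes (5.0%), whereas CCAAT was in 32 of 76 and in 15 of 20. The windows of the members had 49.6% to 63.6% GC, against a median of 51.2%. A match is a description of the letters, and binding was not measured.

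**Figure D2:**
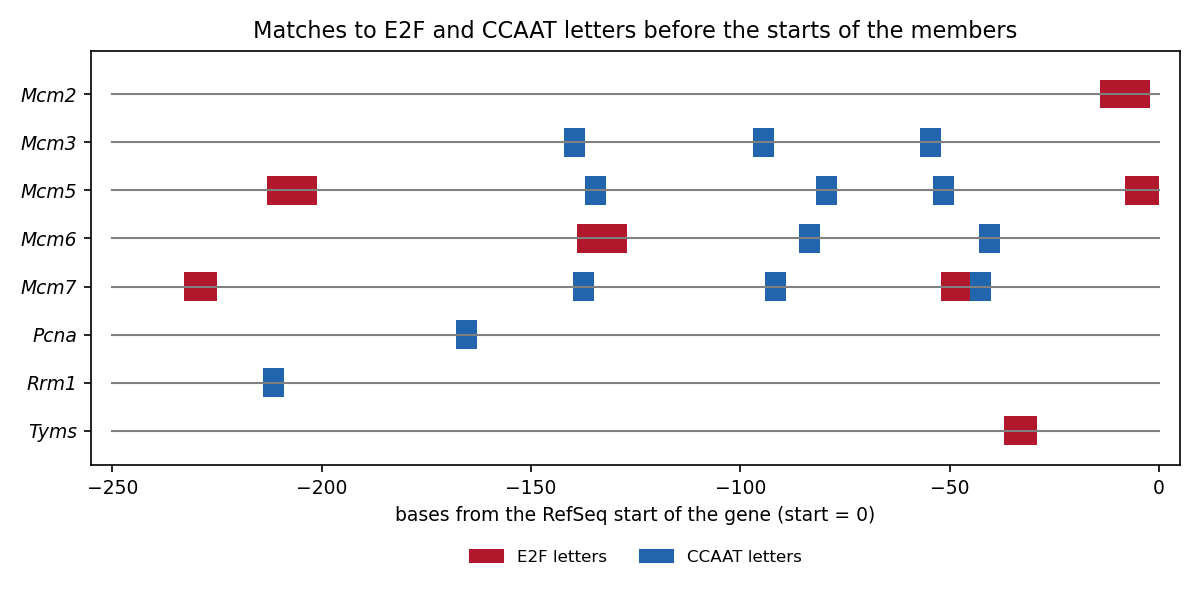
Matches to the E2F letters (red) and to CCAAT (blue), on either strand, in the 250 bases before the start of the 8 members with a RefSeq window, drawn by distance from the start. Mcm2, Mcm5, Mcm6, Mcm7 and Tyms hold E2F letters, and Mcm3, Mcm5, Mcm6, Mcm7, Pcna and Rrm1 hold CCAAT.

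Pcna, the clamp, had 4.87, 4.50, 4.19, 4.36 and 5.04 at D3. It had 3.13, 3.41, 3.63, 2.48 and 3.79 at D7 and 3.86, 3.20, 3.04, 2.88 and 3.80 in Chronic, against 2.54, 2.97 and 2.57 in Control. The D3 arrays lay above all others, and the D7 and Chronic arrays overlapped each other and Control. The log2 fold change was 0.77 ± 0.13 at D3 (adjusted p = 0.000585), 0.28 ± 0.13 at D7 (adjusted p = 0.161) and 0.31 ± 0.13 in Chronic (adjusted p = 0.128).

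Of the genes of nucleotide supply, Rrm2, the subunit of ribonucleotide reductase that cycling cells make anew in S phase, had the highest fitted fold change of the 9 members at D3. It had 1.84, 1.14, 1.34 and 1.57 at D3, where the spot of replicate 12 was left out for its quality flag and the fit has n = 4. It had 0.557, 0.170, 0.999, 0.221 and 0.714 at D7 and 0.179, 0.182, 0.172, 0.214 and 0.408 in Chronic, against 0.116, 0.187 and 0.191 in Control. The D3 arrays lay above every other array, D7 replicate 32 fell within Control, and all 3 Control spots were near background. By the bound for dim spots Rrm2 was at least 5.09-fold higher at D3 (adjusted p = 0.000212) and at least 1.52-fold higher at D7 (adjusted p = 0.038). The fitted log2 fold changes were 3.17 ± 0.48 and 1.43 ± 0.46. Their 95% intervals, 2.17 to 4.18 and 0.46 to 2.39, reach below these bounds.

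Rrm1, its partner subunit, had 6.52, 7.11, 5.38, 6.96 and 7.17 at D3. It had 3.77, 4.02, 5.15, 4.37 and 4.79 at D7 and 3.93, 4.101, 4.04, 3.67 and 4.36 in Chronic, against 3.74, 4.19 and 3.86 in Control. Every D3 array lay above all arrays of the other groups, and those overlapped each other. Its log2 fold change was 0.75 ± 0.12 at D3 (adjusted p = 0.000206), 0.16 ± 0.12 at D7 (adjusted p = 0.352) and 0.03 ± 0.12 in Chronic (adjusted p = 0.893). The other Rrm1 probe was near background on all Control arrays and on 3 of 5 D3 arrays, with at least a 1.27-fold difference at D3 (adjusted p = 0.0687).

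Tyms was the dimmest relative to background. It had 0.358, 0.397, 0.248, 0.290 and 0.376 at D3, against 0.166, 0.0957 and 0.111 in Control, and only 2 of its 18 spots, both at D3, were flagged good. The D3 arrays lay above Control, the difference was at least 1.16-fold (adjusted p = 0.00383), and no fold is given for D7 or Chronic, where the spots of both groups were near background.

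**Figure D3:**
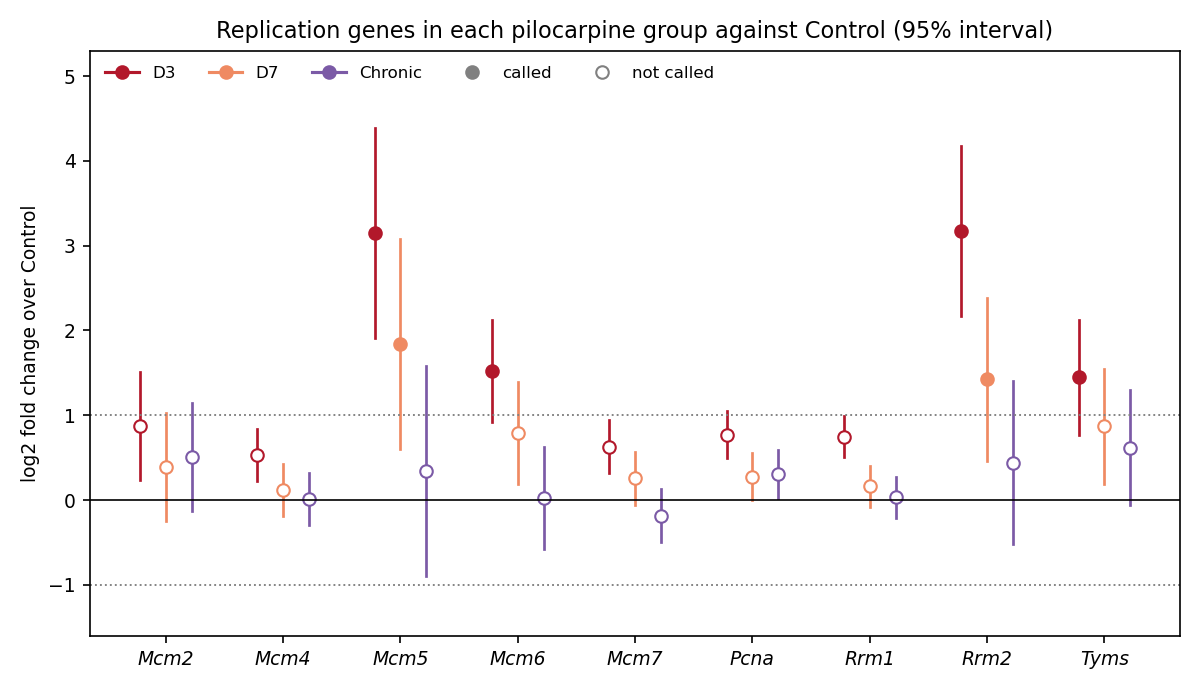
Fitted log2 fold change over Control with its 95% interval for the 9 members at D3, D7 and Chronic. Filled points are called and dotted lines mark 2-fold. Mcm5, Mcm6, Rrm2 and Tyms are called at D3 and Mcm5 and Rrm2 at D7, and for Mcm5, Rrm2 and Tyms the fitted values depend on Control spots near background.

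The D7 rats differed widely among themselves in some members. The SD of the log2 values at D7 ran from 0.72 to 1.10 in Mcm2, Mcm5, Mcm6 and Rrm2. It was 0.49 in Tyms and ran from 0.14 to 0.24 in Mcm4, Mcm7, Pcna and Rrm1. At D7, 2 of the 9 members were called higher, against 3.80% of all genes, and in 1, Mcm5, every D7 array lay above every Control array, against 9.21% of all genes. Replicate 33 was the highest D7 array in 6 of the 9 members and replicate 35 in 2, while replicate 32 was the lowest in 4 and replicate 34 in 3. The mean log2 difference from Control over the members was 0.69, 0.20, 1.24, 0.23 and 1.05 in D7 replicates 31, 32, 33, 34 and 35, whereas it lay between 1.14 and 1.55 in D3, between −0.17 and 0.66 in Chronic and between −0.08 and 0.14 in Control. Only D7 replicate 33 was inside the range of D3, and replicates 32 and 34 were close to that of Control. The call of both genes at D7 was lost without replicate 31, 33 or 35 or without any 1 of the Control arrays (adjusted p from 0.0541 to 0.162), and under quantile normalization (0.0914 for Mcm5 and 0.103 for Rrm2).

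**Figure D4:**
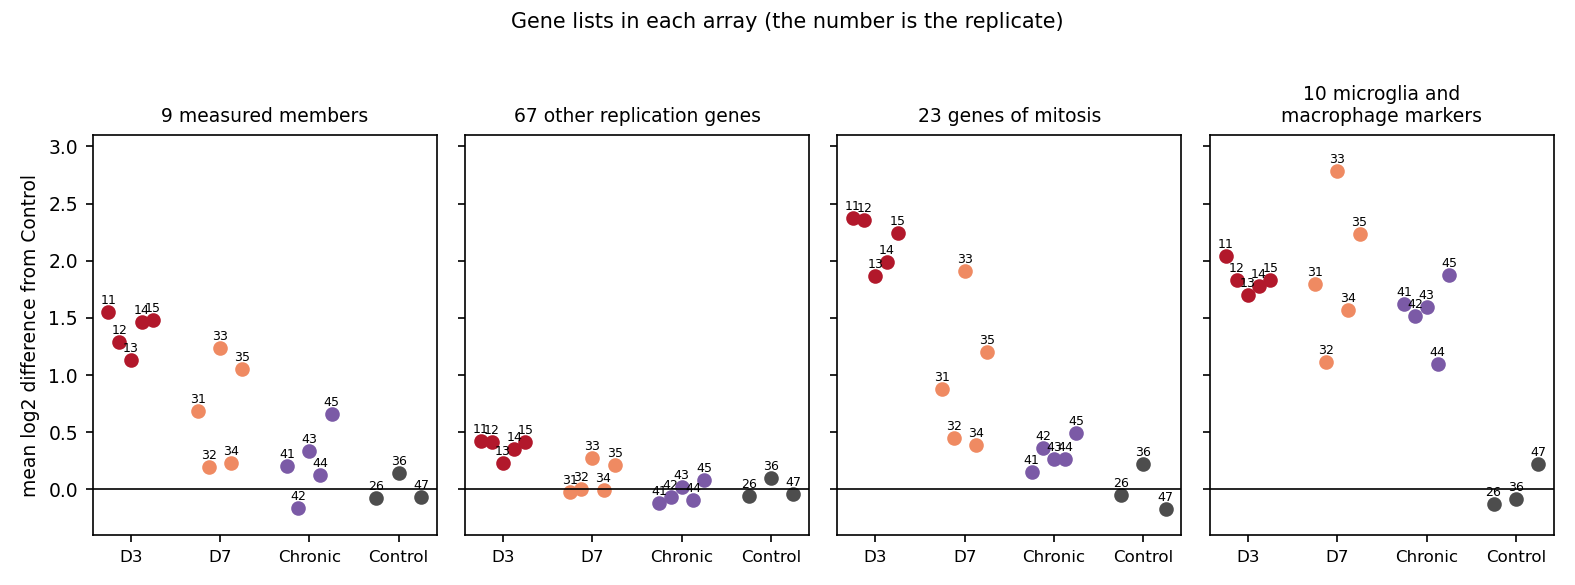
Mean log2 difference from Control in each array, numbered by replicate, for the 9 measured members, 67 other replication genes, 23 mitosis genes and 10 markers of microglia and macrophages in D3, D7, Chronic and Control. Replicates 33 and 35 are the highest D7 arrays in all 4 panels, and the members and mitosis genes are near Control in Chronic while the microglial markers are not.

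In Chronic, 0 of the 9 members were called in either direction by limma, against 2.87% of all genes higher and 0.673% lower, and 1 of 9, Pcna, had an unadjusted p under 0.05 (0.0322). The methods' t-test called 0 members too, with or without adjustment. Mcm2 was the only member in which every Chronic array (0.435, 0.414, 0.460, 0.425 and 0.512) lay above every Control array (0.221, 0.360 and 0.395), which held for 8.07% of all genes. Its log2 fold change was 0.51 (95% interval −0.13 to 1.14, adjusted p = 0.285). For the brighter Mcm6 probe the interval in Chronic was −0.58 to 0.63, for the brighter Rrm1 probe −0.21 to 0.27 and for Mcm4 −0.29 to 0.32, so that for these 3 probes a 2-fold difference lies outside it. Pcna had 0.03 to 0.59 and Mcm7 −0.50 to 0.13. A 2-fold difference lies inside the intervals of Mcm5 (−0.90 to 1.58) and Rrm2 (−0.52 to 1.40), both near background in Control. Tyms was near background in both groups. The dimmer Mcm6 probe had −0.64 (95% interval −1.13 to −0.16, adjusted p = 0.0694), with every Chronic array below every Control array, and here a 2-fold difference lies inside the interval.

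The times were also set against each other directly. In Chronic 3 members were called lower than at D3, against 0.998% of all genes: Mcm5 with a log2 fold change of −2.81 ± 0.51 (adjusted p = 0.00425), Rrm2 with −2.73 ± 0.42 (adjusted p = 0.00119) and Mcm6 with −1.503 ± 0.25 (adjusted p = 0.00192). Mcm6 lost this call with the mean of both probes, at −0.91 (adjusted p = 0.00293), and its dimmer probe had −0.31 (adjusted p = 0.465). Mcm5 lost it by the methods' t-test after adjustment (0.0682). With the adjusted p alone 7 of 9 were lower, all but Mcm2 and Tyms, against 3.16% of all genes, and in the same 7 every Chronic array lay below every D3 array, against 5.16%. Of these 7, Mcm7 had the largest of the differences under 2-fold, −0.82 ± 0.13 (adjusted p = 0.00128). Between D7 and D3, 0 members were called by limma, against 0.454% of all genes called lower, while 7 of 9 had an unadjusted p under 0.05 and all 9 had negative values. The methods' t-test called 2 unadjusted (Mcm5 and Rrm2) and 0 after adjustment. Pcna (−0.49 ± 0.12, adjusted p = 0.0471) and Rrm1 (−0.59 ± 0.10, adjusted p = 0.00923) were lower with the adjusted p alone, against 1.22% of all genes. In Mcm4, Pcna, Rrm1 and Rrm2 every D7 array lay below every D3 array, against 3.69% of all genes. The second Mcm5 probe was called, at −1.47 ± 0.28 (adjusted p = 0.0149). Rrm2 had −1.75 ± 0.42 (adjusted p = 0.0571) and was called without D7 replicate 33 (adjusted p = 0.0114) or without Chronic replicate 45 (adjusted p = 0.038). Between Chronic and D7, 0 members were called by limma or by the methods' t-test, against 0.0243% of all genes higher and 0.0162% lower, and 4 of the 9 had an unadjusted p under 0.05. All values against Control share the same 3 control arrays, and the 2 differences from D3 share its 5 arrays.

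Other genes of replication moved less as a group. Of 67 tested genes 10 were called higher and 1 lower at D3, with a median log2 fold change of 0.17. Over all 12326 genes tested, 628 (5.09%) were called higher and 120 lower at D3, and these shares also apply to the smaller lists below. At D7 4 were called higher (3.80% of all genes) and in Chronic 1 (2.87% of all genes), with medians of −0.01 and −0.10. Of 13 genes of licensing and origin firing, 4 were called higher at D3: Mcm10, a factor that helps switch on the helicase (2.11 ± 0.43, adjusted p = 0.00184), Gins1, a part of the active helicase (1.82 ± 0.33, adjusted p = 0.000823), Dbf4, the activator of the kinase CDC7 (1.69 ± 0.39, adjusted p = 0.00478), and Gmnn, the licensing inhibitor geminin (1.16 ± 0.21, adjusted p = 0.000839). Mcm10 and Dbf4 were near background on all Control arrays, with bounds of at least 1.60-fold and 1.31-fold. Orc4, a subunit of the origin recognition complex, was called lower, at −1.04 ± 0.26 (adjusted p = 0.00761). Gins1 had 3.62, 3.65, 2.32, 3.17 and 3.53 at D3 and 1.0, 0.931, 3.57, 1.23 and 2.75 at D7, against 0.936, 0.972 and 0.830 in Control, and again D7 replicates 33 and 35 were the high ones.

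At the fork, 2 of 25 genes were called higher at D3 (5.09% of all genes): Wdhd1, which links the helicase to polymerase alpha (2.16 ± 0.28, adjusted p = 5.01e-05), and Timeless, of the fork protection complex (1.11 ± 0.27, adjusted p = 0.00559). Wdhd1 was also called at D7 (1.61 ± 0.28, adjusted p = 0.00131) and was the only replication gene called in Chronic (1.18 ± 0.28, adjusted p = 0.0107). In Chronic it had 0.692, 0.727, 0.670, 0.618 and 0.884, against 0.177, 0.334 and 0.525 in Control. The Control spots of replicates 26 and 36 were near background, and the call in Chronic was lost without Control replicate 26. In nucleotide supply 1 of 11 was called higher at D3 (5.09% of all genes), Tk1, the thymidine kinase of S phase, at least 2.34-fold higher (adjusted p = 0.003). Of 18 regulators of S phase and its chromatin 3 were called at D3: Ccna2, or cyclin A (2.85 ± 0.37, adjusted p = 4.29e-05), Chaf1b, of the histone chaperone CAF-1 (1.34 ± 0.27, adjusted p = 0.00158), and Uhrf1, which carries DNA methylation through replication (1.11 ± 0.27, adjusted p = 0.00649). Against D3, 8 of the 67 were called lower in Chronic (Ccna2, Cdc45, Chtf18, Gins1, Mcm10, Prim1, Tk1 and Uhrf1) and 3 at D7 (Ccna2, Chtf18 and Tk1). Over all genes these shares were 0.998% and 0.454%.

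The genes of mitosis, which follows S phase and G2, had larger median differences. Of 23 tested, 16 were called higher at D3, 13 at D7 and 1 in Chronic (Mki67), with median log2 fold changes of 2.48, 1.12 and 0.38. Over all genes the shares called higher were 5.09%, 3.80% and 2.87%. The kinase Pbk had 7.59, 7.74, 6.45, 6.09 and 8.16 at D3, against 0.236, 0.438 and 0.412 in Control, with a log2 fold change of 4.36 ± 0.36 (adjusted p = 4.87e-07). Cdk1, the kinase that starts mitosis, had 3.87 ± 0.38 (adjusted p = 3.41e-06), the topoisomerase Top2a 3.75 ± 0.43 (adjusted p = 1.33e-05), the securin Pttg1 2.93 ± 0.28 (adjusted p = 2.04e-06) and Cdc20, an activator of the anaphase-promoting complex, 2.74 ± 0.30 (adjusted p = 8.31e-06). Mki67, the Ki-67 antigen of cycling cells, was at least 12.7-fold higher at D3 and at least 1.81-fold higher in Chronic (adjusted p = 0.0419). Its D7 values of 1.12, 0.5601, 3.21, 0.697 and 1.69 were highest in replicates 33 and 35.

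The 5 named genes outside the lists whose 3 fitted fold changes over Control were most like those of Rrm2 were Cd300c2, Kif18b, Cks2, Pimreg and Cep55, with mean absolute differences of 0.10 to 0.24 on the log2 scale over the 3 comparisons. The fitted values of Rrm2 rest on Control spots near background, so this likeness is a description of the fit only.

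Markers of several cell types moved with the groups, and in whole tissue more cells of a type and more RNA per cell cannot be told apart. Of 10 markers of microglia and macrophages 8 were called higher at D3, all 10 at D7 and 8 again in Chronic, and their summed intensity ranged from 268.5 to 331.8 in D3 arrays, from 190.1 to 545.4 in D7 arrays and from 176.2 to 320.9 in Chronic arrays, against 84.4 to 97.3 in Control. The 9 members summed to between 26.1 and 33.5 in D3 arrays (replicate 12 without Rrm2), between 17.2 and 26.8 in D7 arrays and between 15.4 and 19.0 in Chronic arrays, against 14.97 to 17.95 in Control, so the microglial markers were above Control in Chronic while the members overlapped it. Within D7, replicates 33 and 35 had the highest sums of both lists (545.4 and 366.8 for the markers), and also high sums of 7 choroid plexus markers (359.3 and 343.6, against 17.6 to 19.9 in the other 3). At D3 the choroid plexus sum was 299.2 and 240.5 in replicates 11 and 14, against 16.5 to 22.6 in the other 3, beside sums of the members of 33.5 and 32.3, against 26.1 to 31.2. The Chronic replicates 44, 41, 45, 42 and 43 had choroid plexus sums of 288.8, 228.4, 192.2, 127.9 and 22.93. Their sums of the members were, in the same order, 15.76, 16.33, 18.96, 15.36 and 17.98. In Control, replicates 26, 47 and 36 had choroid plexus sums of 267.7, 97.14 and 30.59. Their sums of the members were, in the same order, 14.97, 15.72 and 17.95. How the choroid plexus sums go with those of the members was not tested. Among the choroid plexus markers 1, Ttr, was called lower at D7 (−4.13 ± 1.34, adjusted p = 0.0451). The sums count any spot with a value, whatever its flag, while the fit left out spots flagged neither good nor low. This call and the sums can therefore rest on different spots. The 1 tested marker of red blood cells, Alas2, was called lower at D3 (−1.70 ± 0.58, adjusted p = 0.0421) and at D7 (−2.44 ± 0.58, adjusted p = 0.00876). Of 7 tested markers of neural progenitors and new neurons 1, Nes, was called higher at D3 (1.45 ± 0.19, adjusted p = 5.01e-05), and their sum was 15.7 to 19.3 at D3, against 14.2 to 17.5 in Control. At D3, 5 of these 7 had positive values, Pax6 was higher at the adjusted p alone (0.00146), and Neurod1 (−0.88, adjusted p = 0.0239) and Dcx (−0.40, adjusted p = 0.044) were lower. Neurod1 was called lower at D7 (−1.06 ± 0.27, adjusted p = 0.0119). Of 7 astrocyte markers 1, Gfap, was called higher at D3 (2.15 ± 0.17, adjusted p = 3.94e-07). Of these 7, 4 had positive values at D3, and the lowest was S100b (−0.65 ± 0.11, adjusted p = 0.000519). Of 7 T cell markers 2, Cd8b and Cd5, were called higher at D3. Of 5 markers of oligodendrocyte precursors and 7 of endothelium and pericytes 0 each were called by limma, with 2 and 1 at an unadjusted p under 0.05. Of 8 neuronal markers 2, Calb1 and Camk2a, were called lower at D3. Over all 12326 genes 5.09% were called higher at D3, 3.80% at D7 and 2.87% in Chronic, while 120 were called lower at D3 and 60 at D7. The part of each cell type in the replication genes was not tested.

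The limits of these calls lie in the controls and in dim spots. Against the 1 Control array of the same time, 5 of 9 members were higher at D3 at the adjusted p alone (Mcm6, Mcm7, Pcna, Rrm1 and Rrm2). Mcm5 (log2 fold change of 2.84, adjusted p = 0.0758) and Tyms (0.98, adjusted p = 0.25) lost their calls. In that fit the lone Control array is assumed to vary like the arrays of the other groups. With only spots flagged good 5 members could be tested, and all 5 were higher at D3.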

How the data were processed

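Hippocampal RNA of 18 rats was measured on 1-colour CodeLink Rat Whole Genome arrays. Per the study's methods, the authors scanned the arrays, subtracted the background, normalized with the CodeLink software and kept spots flagged good (G) or low (L). The deposited normalized intensity is linear, with the median of each array near 1, and its depth is limited by the number of arrays and by spots near background. The authors' values were used as deposited, from the scanner files, which the table of the whole series repeats.

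Spots with other flags (0.699%) were left out, the rest was raised to percentile 1 of each array's positive values and the log2 values were computed from the deposited intensity. Probes were tested when 3 or more values were left in D3, D7 and Chronic and 2 or more in Control (33800 of 33849). limma 3.58.1 in R 4.3.3 fitted the 4 groups in 1 model (lmFit, eBayes with trend), without covariates, and p-values were adjusted by Benjamini-Hochberg. Calls needed both an adjusted p below 0.05 and a 2-fold difference. The probe with the highest mean log2 value stood for a gene. Errors beside fold changes are standard errors of the fit, whose median residual SD was 0.291. Where every spot of the dimmer group was flagged low, the bound "at least N-fold" sets the mean of the brighter group against the higher of the dim spot and the lowest good signal of each array. It allows for dim spots only and not for the spread between arrays. The labels give separate rats but no slide or date, so no batch was tested. The fit was tested on simulated data.

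Named are all members and their probes, up to 6 called genes of each other list with the lowest adjusted p at D3, and 5 genes most like the member with the largest fitted fold change at D3. Other called genes of these lists, Gins1 per array and Wdhd1 and Mki67 at later times, were named after their values were seen, as were single marker genes. The members and lists were chosen with earlier results of these data known. Sequences are from RefSeq (GRCr8). Alternatives were scaling, floor, flags, filter, prior, probe choice, control arrays, the methods' t-test and leaving out each array.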

Additional observations from a re-analysis of the deposited data

Results flagged for a closer look

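In 3 of 36 sets of 4 or 5 arrays examined, 1 array stood apart from the rest of its group, where chance alone gives about 1 in 20. Rrm2 had 0.408 in Chronic replicate 45, against 0.172 to 0.214 in the other Chronic arrays. Mcm7 had 5.16 in Chronic replicate 43, against 3.41 to 3.82 in the others. Mcm5 had 1.05 in D3 replicate 13, against 1.505 to 1.71 in the others. That D3 rat was the lowest of its group in 8 of the 9 members, and Chronic replicate 45 was the highest of its group in 7 of 9.

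The difference from Control itself differed between times in 5 tests of 1 time against another. In Chronic against D3, Mcm5 differed by −2.81 on the log2 scale with its brighter probe and by −2.82 with the other (adjusted p = 0.00425 and 1.94e-05; for the second, near background on all Chronic arrays, the bound is at least 3.58-fold lower), Rrm2 by −2.73 (adjusted p = 0.00119) and Mcm6 by −1.503 (adjusted p = 0.00192). At D7 against D3, the dimmer Mcm5 probe differed by −1.47 (adjusted p = 0.0149), while the brighter had −1.31 (adjusted p = 0.278).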

How the results depend on the processing

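For the members called at D3 (4), 1 was called with only spots flagged good (5 members tested), 2 with probes good on 9 or more of the 18 arrays and 2 against the control array of the same time. At D7 (2 called), 0 were called under quantile normalization, with only good spots, without a trend in the prior, against the control array of the same time and by the methods' t-test after adjustment, and 1 by that test unadjusted or with probes good on 9 or more of the 18 arrays. Leaving out 1 array gave 0 to 3 at D7 and 0 to 1 between D7 and D3, where the unadjusted t-test called 2. Of 3 members called lower in Chronic than at D3, 1 was called with only good spots. The counts at the adjusted p alone were chosen after seeing the data. At D3 (9) they were 5 with only good spots and 5 against the control array of the same time, and in Chronic against D3 (7) 4 by the adjusted t-test.

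For other replication genes, 11 called at D3 became 7 with only good spots and 4 against the control array of the same time. At D7 (4) these gave 1 and 1, the adjusted t-test 0 and leaving out an array 1 (without D7 replicate 33 or 35) to 6. In Chronic (1) all 3 gave 0, and leaving out an array 0 (without Control replicate 26) to 2. Between D7 and D3 (3), good spots gave 1, the adjusted t-test 0 and leaving out an array 0 (without D3 replicate 12 or D7 replicate 32 or 34) to 4. Between Chronic and D3 (8), good spots gave 5, and between Chronic and D7 (0) the unadjusted t-test called 1. With fewer spots or control arrays, fewer genes or samples enter a fit; of the other changes the cause was not tested.

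No called value changed sign. Values near 0 did: Mcm4 at D7 was −0.021 against the control array of the same time, and with the mean of all probes Mcm6 was −0.31 and Rrm1 −0.077 in Chronic. Leaving out an array gave ranges of −0.060 to 0.104 for Mcm4, −0.073 to 0.857 for Mcm5, −0.047 to 0.080 for Mcm6 and −0.0022 to 0.079 for Rrm1 in Chronic against Control, and of −0.14 to 0.31 for Mcm2 and −0.065 to 0.088 for Pcna in Chronic against D7. Scaling at the 75th percentile moved the median of all genes by 0.11 in Chronic and at D7. No paired analysis was possible because no replicate number occurs in more than 1 group. Depth is limited for Mcm5, Rrm2 and Tyms, which were near background on all Control arrays.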
